A study of Homo sapiens with 3 samples.

Results

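Cytoplasmic ribosomal protein mRNAs are the messengers for the proteins of the 40S and 60S ribosomal subunits. Their exon clusters were taken from a PAR-CLIP experiment on DICER, which dices precursor miRNA hairpins and other double-stranded RNA. A cluster, a stretch of overlapping reads with T-to-C conversions, counted as a member when its sense annotation held an exon of a coding RefSeq transcript and named an RPL or RPS gene, RPLP0, RPLP1, RPLP2 or RPSA. Copies with an L, AL or L1 ending were included, and pseudogenes and mitochondrial ribosomal proteins were not. The rule used names and annotation only, and no measured value. It gave 103 of 11577 clusters in the first replicate, 77 of 18065 in the second and 23 of 5099 in the third. The series-wide list of the authors, in which each cluster had reads from 2 or 3 replicates, held 68 member clusters of 8469. Of 85 ribosomal protein genes considered, 53 of the large and 32 of the small subunit, 60 had a cluster in at least 1 of the 4 lists. A member cluster of replicate 1, at the 3′ UTR of the neighbouring gene KRBA2, named RPL26 without lying in an RPL26 coding transcript.

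The cell line was HEK293, established from human embryonic kidney, in its Flp-In T-Rex form with a FLAG:DICER transgene. All 3 samples were replicates of 1 group, with thiouridine treatment of the cells and RNase T1 digestion. No untreated cells, parental line or other protein served as a control. The labels do not say how strongly the transgene was driven. They also leave unstated whether each replicate was grown as its own culture, so that p-values may measure only technical spread. RNA abundance was not measured, so more binding and more RNA cannot be told apart.

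Ribosomal protein mRNAs are among the most abundant messengers of a growing cell. They are short, are built from short exons, and typically begin with a C followed by an unbroken run of pyrimidines, the terminal oligopyrimidine or TOP start. The TOP start is known to tie their translation to growth signalling through mTOR and LARP1. Many of their introns host small nucleolar RNAs.

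The starts of 7 of these mRNAs are shown because clusters lay at their annotated transcript starts or because the genes carried the most conversions. Each line gives 15 bases before the annotated start and 15 from it, in RefSeq coordinates of GRCh38.p14 on the strand of the gene. Capitals mark a run of at least 6 consecutive C or T bases that reaches to within 3 bases of the start.
RPLP0, chr12:120201097-120201126, minus strand: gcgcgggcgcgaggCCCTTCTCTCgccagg
RPLP1, chr15:69452803-69452832, plus strand: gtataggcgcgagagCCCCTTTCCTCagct
RPL12, chr9:127451392-127451421, minus strand: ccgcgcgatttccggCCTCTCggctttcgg
RPS16, chr19:39435935-39435964, minus strand: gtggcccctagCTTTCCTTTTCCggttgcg
RPL28, chr19:55385917-55385946, plus strand: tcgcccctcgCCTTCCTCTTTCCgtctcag
RPL13, chr16:89560642-89560671, plus strand: ggccctgctatcatcccagagtgcattgcg
RPS15, chr19:1438381-1438410, plus strand: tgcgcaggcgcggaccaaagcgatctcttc
The first 5 hold such a run, and RPL13 and RPS15 do not. RPL28 is shown also for an annotated miRNA hairpin, hsa-mir-6805, under its strongest cluster. Its mature miRNAs follow, with the seed, bases 2 to 8, in capitals.
hsa-miR-6805-5p, chr19:55388186-55388207, plus strand: uAGGGGGCggcuuguggagugu
hsa-miR-6805-3p, chr19:55388220-55388242, plus strand: uUGCUCUGcucccccgcccccag
The arms do not share a seed.

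Start sequences were present for 68 of the 85 members. Only the transcript strand was searched, with any mixture of C and T. A pyrimidine run reached the start in 49 of these 68 (72.1%), against 18.7% of 15842 protein-coding genes with windows of the same length. A C was the first base in 48 members (70.6%) and in 11.3% of all coding genes. These matches describe the letters of the annotated starts. The clusters are in hg19 coordinates and were not joined to these windows.

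The replicates differed in depth. The lists held 1306125, 1060791 and 595487 conversions in replicates 1, 2 and 3, and 6741, 7799 and 1895 mRNA exon clusters. Member clusters carried 2629, 913 and 630 conversions. That was 1.76%, 1.21% and 1.29% of the conversions of all mRNA exon clusters, a mean of 1.42% ± 0.299 (SD, n = 3). The share of mRNA exon clusters was 1.24% ± 0.272 (SD, n = 3). Against all listed conversions, members made up 0.201%, 0.0861% and 0.106%. Ribosomal protein messengers were thus a small part of the listed RNA in each replicate.

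Of the 158 places covered by member clusters, 6 recurred in all 3 replicates, where a place is the union of clusters overlapping by at least 1 nt on the same strand. They lay in RPS19, RPL28, RPLP1, RPL12, RPLP0 and RPL22L1. This was 3.80% of member places, close to the background of 3.28% of 13668 places over all mRNAs and 3.27% outside ribosomal protein mRNAs. Another 33 member places were found in 2 replicates and 119 in 1. In 2 or more replicates there were 39 of the member places (24.7%) and 16.4% of the places of other mRNAs. With 1 replicate left out, 10 to 27 places were common to the remaining lists, with the highest number without replicate 3, and 3 places were left in all 3 replicates at a minimum of 3 distinct reads.

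The strongest place of all was in RPS19, a small subunit protein of the head of the 40S subunit whose gene is the one most often mutated in Diamond-Blackfan anaemia. It spanned chr19:42373101-42373153 (hg19, plus strand) in exon 4 of NM_001022, annotated as 5′ UTR and coding sequence of different transcripts. In replicate 2 the cluster also touched an annotated start codon. The place held 314, 194 and 97 conversions in replicates 1 to 3, and 501 in the series-wide list. These came from 32, 30 and 4 distinct reads. The listed position was base 42373125 in all 3 replicates. RPS19 was the largest member cluster of each list, with 11.9%, 21.2% and 15.4% of member conversions in replicates 1, 2 and 3.

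RPL28, a 60S protein, held the second of these places, at chr19:55899552-55899583 (hg19, plus strand). The authors' cluster had the same bounds in all 4 lists, and 146, 80 and 58 conversions from 37, 33 and 7 distinct reads in replicates 1, 2 and 3. Its RefSeq exon was exon 4 of NM_001136134 alone, and it was an intron in other transcripts. The files also annotated the hairpin hsa-mir-6805 there, whose mature sequences are printed above. Whether the reads came from the messenger, the intron or the hairpin cannot be told apart with these lists. This was the only member cluster in each replicate list that named a miRNA hairpin in sense.

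Of the recurring places, 3 were in 5′ UTRs, and all belonged to the ribosomal stalk or its base. RPLP0, RPLP1 and RPLP2 form the acidic stalk that recruits elongation factors, and RPL12 sits at its base. The RPLP1 place, in exon 1 at chr15:69745158-69745252 (hg19, plus strand), had conversions of 98, 2 and 73 over replicates 1, 2 and 3. Replicate 2 was far below the other replicates there. The RPL12 place, in exon 1 at chr9:130213612-130213670 (hg19, minus strand), had 67, 39 and 44 conversions, with the listed position at base 130213643 in all 3. The RPLP0 place, in exon 1 at chr12:120638840-120638911 (hg19, minus strand), had 69, 34 and 6 conversions. Its listed positions lay up to 29 nt apart, and in replicate 3 only 2 distinct reads supported it. At all of these places at least 2 replicates had the cluster at the annotated transcript start.

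The last recurring place was in exon 4 of RPL22L1, the paralog of RPL22, at chr3:170584142-170584173 (hg19, minus strand). Its 15, 5 and 35 conversions came from 2, 3 and 2 distinct reads. The cluster touched the stop codon in replicates 1 and 3 and the 3′ UTR alone in replicate 2. The listed position was the same in all 3 replicates at 4 of the 6 member places (66.7%), namely RPS19, RPL28, RPL12 and RPL22L1. Among other mRNA places with 1 cluster per replicate, this was so at 189 of 415 (45.5%).

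In all, 16 members had a cluster in all 3 replicates, which is 18.8% of the 85 considered. The background was 4.41% of 20052 protein-coding genes. Counted only among genes with a cluster in any replicate, the figures were 16 of 58 members (27.6%) and 14.9% of 5947 genes. Recurrence in all 3 replicates was therefore more frequent than the background by gene, while by place it was close to it, and 10 of the 16 genes had no place shared by all 3 replicates. No gene was matched on expression or length, so the part of abundance in this was not tested. The count rested on the shallow replicate 3 and on thin clusters. Over replicates 1 and 2 alone it was 34, and with at least 3 distinct reads per cluster it was 4.

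**Figure D1:**
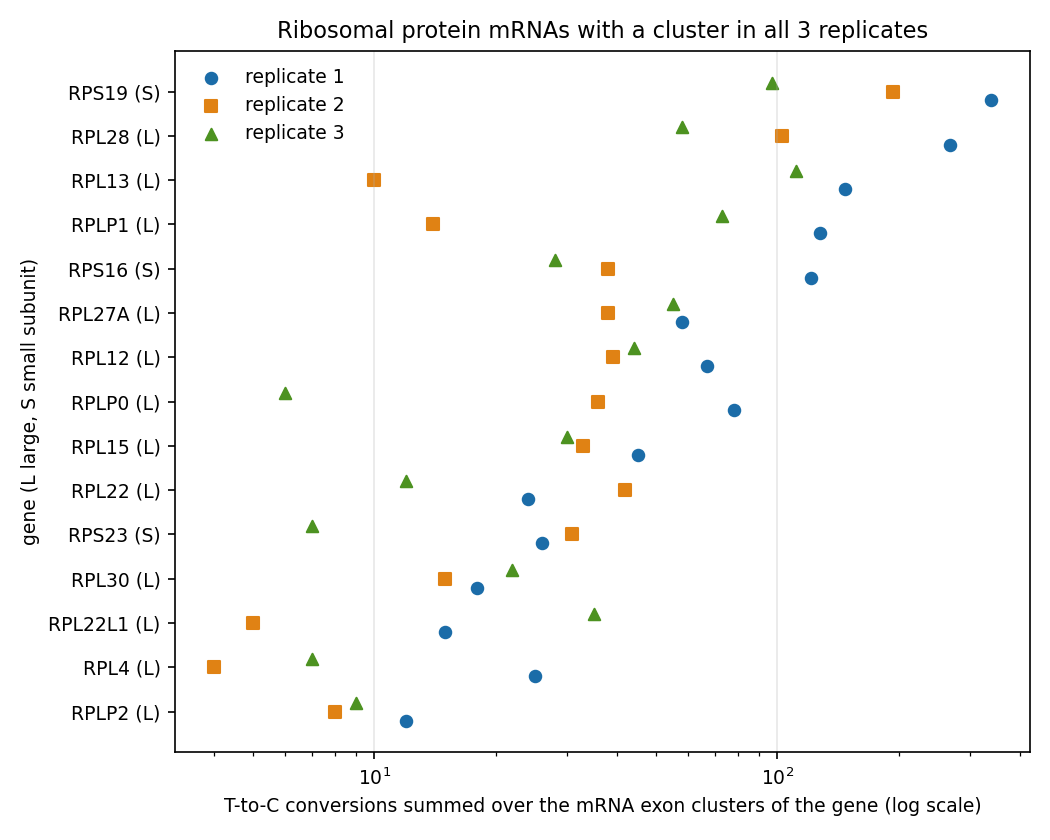
T-to-C conversions (log scale) summed over the mRNA exon clusters of 15 of the 16 ribosomal protein genes with a cluster in all 3 replicates, with 1 point per replicate; L and S mark the large and small subunit. RPS19 and RPL28 are highest in replicates 1 and 2, with 339 and 194 and with 269 and 103 conversions, and RPL13 is highest in replicate 3 with 111. RPL12, RPL13, RPL22L1, RPL27A, RPL30, RPL4, RPLP1 and RPLP2 each have their lowest value in replicate 2, and the other plotted genes in replicate 3.

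The recurring genes of the large subunit, besides the 5 above, were RPL13, RPL15, RPL22, RPL27A, RPL30, RPL4 and RPLP2. RPL13 had 147, 10 and 111 conversions in replicates 1, 2 and 3. Replicate 2 was lowest, with 2 clusters against 10 and 5. RPL27A had 58, 38 and 55, and RPL15 had 45, 33 and 30. RPL22, a protein of the 60S surface, had 24, 42 and 12. RPL30 had 18, 15 and 22 conversions and the stalk protein RPLP2 had 12, 8 and 9. RPL4, which lines the exit tunnel for the nascent chain, had 25, 4 and 7, from 5, 2 and 2 distinct reads. In replicate 3 all of these genes except RPL13 rested on 2 to 4 distinct reads.

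On the small subunit side, RPS16 and RPS23 were among the genes that recurred besides RPS19. RPS16 had 121, 38 and 28 conversions in replicates 1, 2 and 3. RPS23, a protein of the decoding centre, had 26, 31 and 7. Neither gene had a place common to all replicates. In RPS16 the place at chr19:39923961-39924007 (hg19, minus strand), which spans the stop codon, had 54, 0 and 28 conversions. A neighbouring 3′ UTR place at chr19:39923866-39923911 had 25, 38 and 0.

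RPS15 shows what the exon rule does at a boundary. Its place at chr19:1440241-1440321 (hg19, plus strand), over the stop codon and a 5′ splice site, was a member cluster in replicate 1 alone, with 94 conversions from 22 distinct reads. Overlapping RPS15 clusters, with 29 and 28 conversions from 19 and 2 distinct reads, were listed in replicates 2 and 3, but with no exon of a coding RefSeq transcript. With overlaps of any annotation counted, a step added after the data had been seen, RPS15 was thus one more recurring place, and 7 of 158 member places (4.43%) were found in all 3 replicates, against 3.43% of other mRNA places. Other strong member clusters were listed in fewer replicates. A cluster of RPS29 with 129 conversions at its stop codon in replicate 1 was overlapped in no other replicate, and was chosen for mention after its values were seen. RPS21 had 83, 17 and 0 conversions by gene, and RPL27 had 98, 22 and 0. RPL8 had 100, 15 and 0, all in coding sequence, and RPL13A had 64, 7 and 0, all in its 3′ UTR. These 4 genes had no cluster in replicate 3, the shallowest list.

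No member cluster was listed for 25 of the genes. Those of the large subunit included RPL19, RPL21, RPL29, RPL34, RPL37, RPL38, RPL41, RPL6 and RPL7, with the copies RPL10L, RPL26L1, RPL39L and RPL3L. On the small subunit they included RPS10, RPS15A, RPS18, RPS20, RPS26, RPS27, RPS28, RPS3A and RPS7. Of the 25, 14 had clusters that named the gene without an exon of a coding RefSeq transcript, and 11 had none in any list. Ribosomal protein genes have near-identical pseudogene copies, and how the authors treated reads that map to several places is not stated, so the values of single genes are uncertain to that extent.

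Per replicate, 60%, 48.2% and 21.2% of the members had a cluster, against 18.1%, 22.4% and 8.07% of protein-coding genes in replicates 1, 2 and 3. In the series-wide list 47.1% of members had one, against 14.5% of coding genes. Of the 23 member clusters of replicate 3, 14 were overlapped in replicate 1 (60.9%, 95% Wilson interval 40.8 to 77.8) and 10 in replicate 2 (43.5%, 25.6 to 63.2). For other mRNAs the same shares were 31.0% and 33.1%. In the other direction, 27 of 103 clusters of replicate 1 were found again in replicate 2 (26.2%), against 29.0% for other mRNAs. Member clusters of replicate 1 that were found again in replicate 2 had a median of 25 conversions, and those that were not had 11. The intervals cover counting error only, because clusters of 1 gene are not independent. RPL13 alone gave 5 of the 23 member clusters of replicate 3, and all 5 were overlapped in replicate 1.

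**Figure D2:**
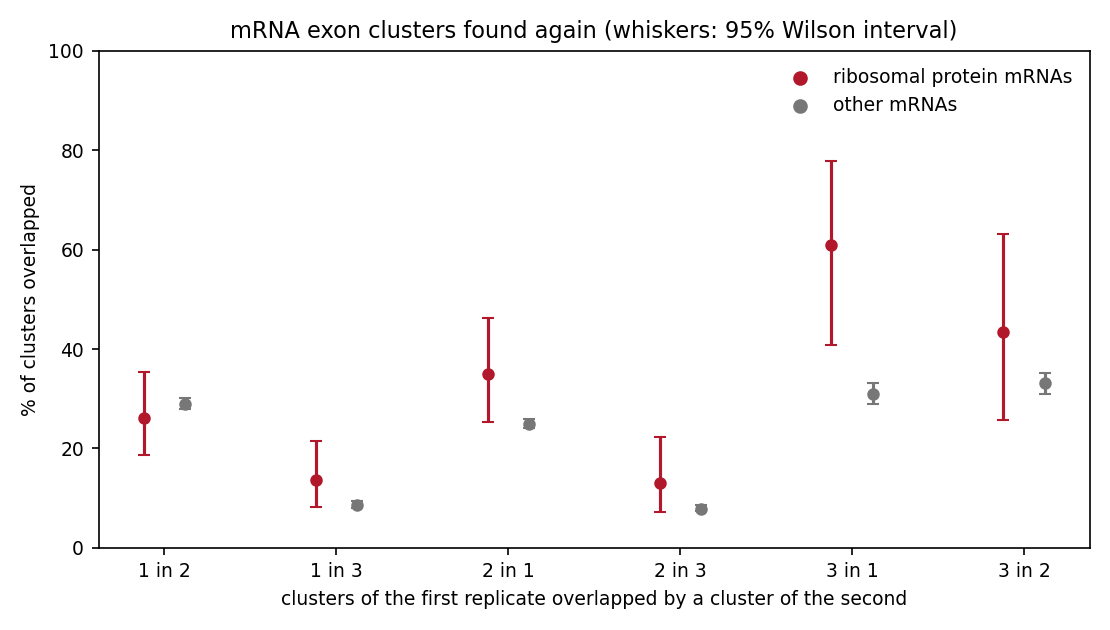
Share of the mRNA exon clusters of one replicate (first number) that a cluster of another (second number) overlapped, for ribosomal protein and other mRNAs, with 95% Wilson intervals. The shares of ribosomal protein clusters lie above those of other mRNAs in 5 of the 6 directions. The interval of replicate 3 in replicate 1 runs from 40.8% to 77.8%, against 31.0% for other mRNAs, but it treats clusters of 1 gene as independent. RPL13 alone gave 5 of these replicate 3 clusters, all overlapped in replicate 1.

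By annotated region, member clusters were distributed differently from other mRNA clusters. A cluster was given 1 region when its annotation held only 5′ UTR, only coding sequence or only 3′ UTR, and was otherwise placed in several. These labels were not limited to exons. Clusters of RPS2 and RPL10A that were annotated as intron with no exon also carried a coding label. A region label may therefore come from an intron of another transcript. Clusters in the 3′ UTR alone made up 16.5%, 19.5% and 21.7% of member clusters in replicates 1, 2 and 3, and 52.2%, 52.3% and 49.9% of other mRNA clusters. The groups did not overlap, and the mean difference was -32.2 ± 3.82 percentage points (SD, n = 3). Coding shares were 42.7%, 39.0% and 30.4% against 28.6%, 27.9% and 28.3%, a difference of 9.10 ± 6.19 points that was smallest in replicate 3. The Wilson interval of the coding share in replicate 3, with 23 clusters, ran from 15.6% to 50.9%. The direction held for clusters and not for conversions, of which coding clusters held 25.2% ± 5.41 in ribosomal protein mRNAs and 29.7% ± 2.09 in other mRNAs. With a cluster in several regions counted for each, the difference was 28.5 points for coding sequence and -16.1 for the 3′ UTR, and the coding difference was 4.99 points for clusters whose conversions reached the median of their list. The 5′ UTR share was 12.7% ± 4.25 against 8.70% ± 1.80, a difference of 4.01 ± 2.97 points, with replicate 2 nearly even at 0.829 points and a mean of 2.66 without replicate 3. It was 8.81 points among clusters with at least 3 distinct reads. Each of these 3 differences had the same sign in 3 of 3 replicates, and the exact two-sided sign-flip permutation test gave p = 0.25 for each, the smallest value that 3 replicates allow, and 0.4 after Benjamini-Hochberg adjustment over 8 tests. The design therefore cannot pass a threshold of 0.05. Annotated region lengths in hg19 were not used here, so the shares are not per base.

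**Figure D3:**
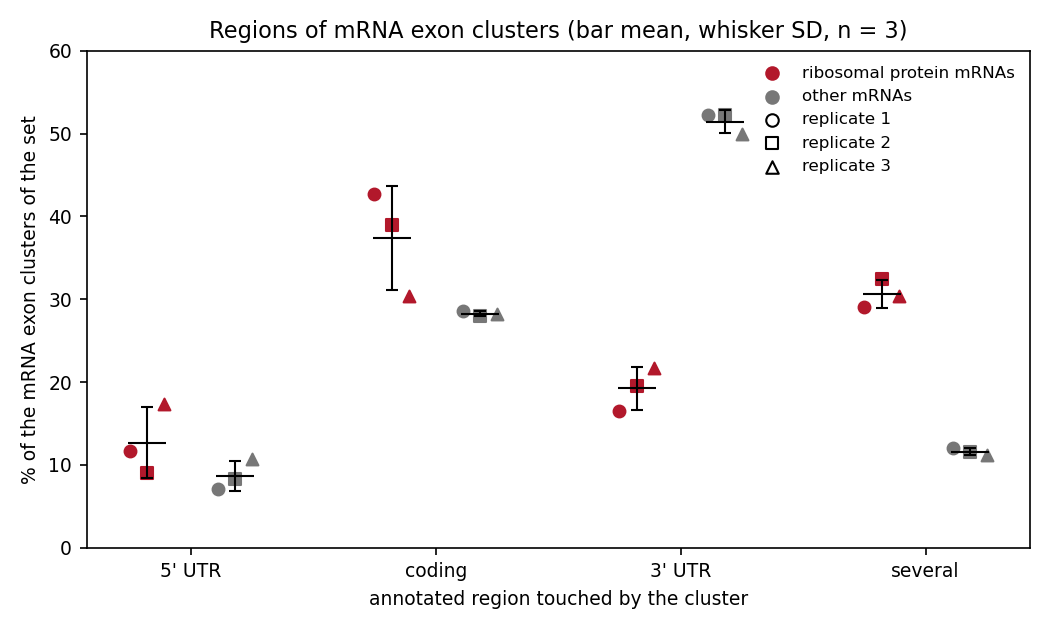
Share of mRNA exon clusters by annotated region for ribosomal protein and other mRNAs, 1 point per replicate, with the mean as a bar and the SD as whiskers (n = 3). The 3′ UTR points of ribosomal protein mRNAs, 16.5% to 21.7%, lie far below those of other mRNAs, 49.9% to 52.3%. Clusters annotated with several regions are more frequent, with labels from introns included.

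Clusters annotated with several regions held the most member conversions. Their shares were not taken without clusters also annotated as intron, so part of the difference from other mRNAs may lie in intron labels. They were 30.7% ± 1.68 of member clusters and 46.3% ± 2.64 of member conversions (SD, n = 3), against 11.6% ± 0.422 and 10.9% ± 0.576 for other mRNAs. RPS19, RPL28 and RPS15 led this class in the series-wide list. In the 5′ UTR the leaders were RPLP1, RPL12 and RPLP0. In coding sequence they were RPL27, RPL8 and RPL13, and in the 3′ UTR RPL13, RPL27A and RPL13A. RPL27 had a coding cluster of 67 and 13 conversions in replicates 1 and 2, at chr17:41154704-41154749 (hg19, plus strand), that was not listed in replicate 3.

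Member clusters lay more often than other mRNA clusters at annotated transcript starts and splice sites. A transcript start was touched by 16 of 203 member clusters over the 3 replicates, a mean of 8.08% ± 0.529 (SD, n = 3), against 3.00% ± 0.140. A splice site was touched by 24, a mean of 11.9% ± 2.46 against 2.51% ± 0.276. For the stop codon the values were 6.57% ± 4.59 and 1.10% ± 0.640, with the member share down to 1.30% in replicate 2. For the start codon they were 2.59% ± 2.25 and 1.54% ± 0.230, within the spread of the members. These landmark shares were described without a test. RPL13 alone gave 6 of the 24 splice site clusters, and RPLP0, RPL12 and RPLP1 together gave 8 of the 16 at transcript starts. The remainder of the latter came from 8 genes with 1 cluster each, RPL13, RPL14, RPL17, RPL28, RPL35, RPS15, RPS16 and RPS6, chosen for mention by that landmark. A pyrimidine run reached the annotated start in 8 of the 11 members with a start cluster in any list (72.7%) and in 41 of the other 57 (71.9%). A C was the first base in 10 of these 11 (90.9%) and in 38 of the 57 (66.7%).

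Of member clusters, 37.1% ± 8.58 were also annotated as intron, against 16.5% ± 0.866 of other mRNA clusters. Of these 78 member clusters, 58 lay in an intron of another transcript only, and 20 held an exon and an intron of the same transcript. An intron was annotated on 11 of 13 RPL28 clusters, all 6 of RPL22, all 5 of RPL15 and of RPL30, and 8 of 17 of RPL13. Without such clusters the region differences were -28.1 points for the 3′ UTR and 9.45 for coding sequence, an alternative added after the data had been seen. Spliced messenger and unspliced precursor cannot be told apart for these clusters.

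The members with the most clusters were RPL13, RPL28 and RPL27A, with 10, 6 and 6 in replicate 1. RPL13 had 10, 2 and 5 clusters in replicates 1, 2 and 3, over 5′ UTR, coding sequence and 3′ UTR. Of its places, 5 were shared by replicates 1 and 3 and not listed in replicate 2, such as a coding place at chr16:89628768-89628800 (hg19, plus strand) with 8, 0 and 47 conversions. RPL27A had 6, 4 and 2 clusters, all in an annotated 3′ UTR, and none recurred in all 3 replicates. Its last place, at chr11:8710601-8710638 (hg19, plus strand), had 0, 12 and 27 conversions. RPL28 had 6, 6 and 1 clusters, and only the hairpin place was common to the replicates. The other RPL28 clusters held 3 to 34 conversions and did not coincide between replicates 1 and 2.

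**Figure D4:**
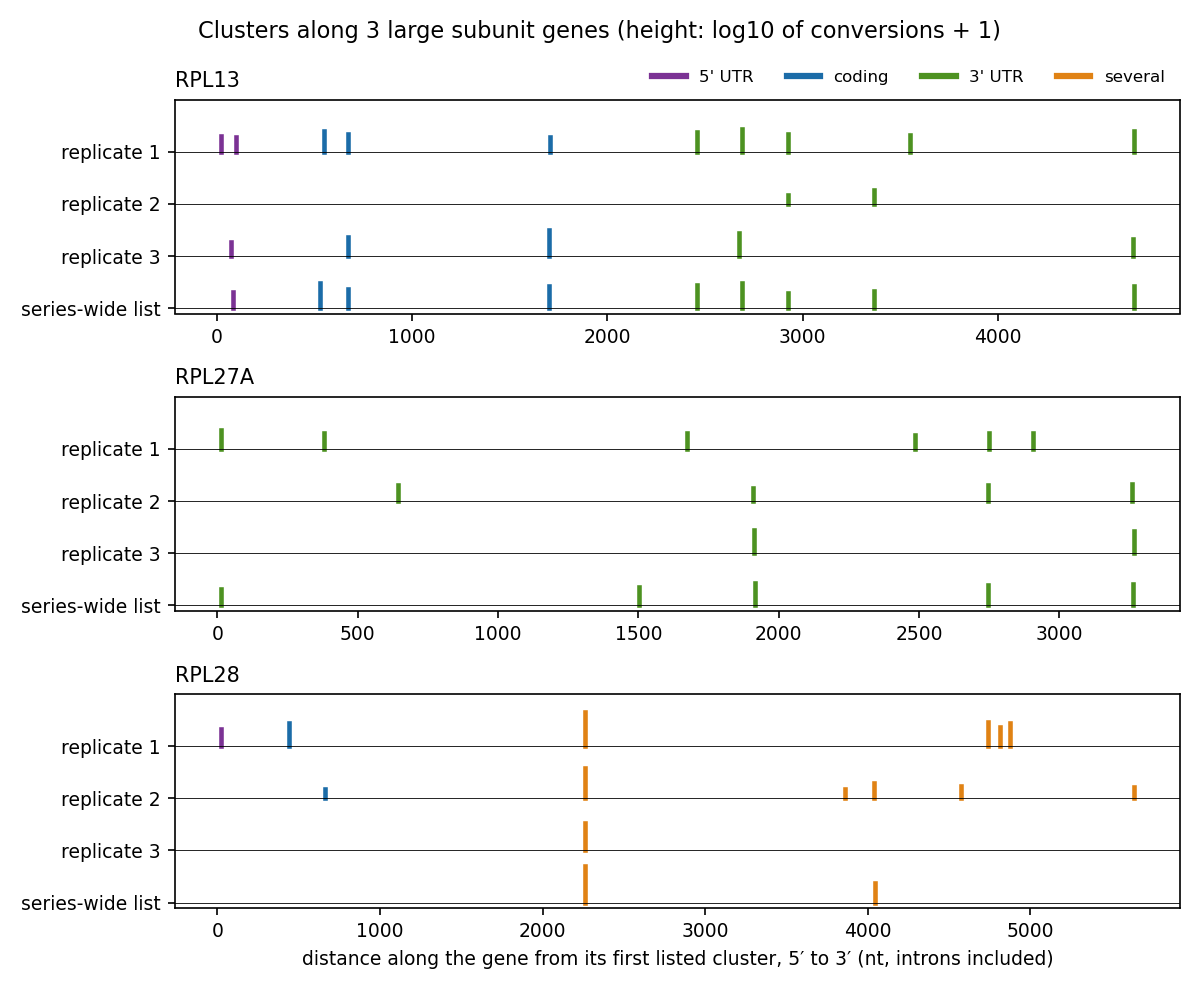
Clusters of RPL13, RPL27A and RPL28 by distance in nt from the first listed cluster of each gene, introns included, in each list; line height is log10 of conversions + 1 and colour the region. RPL13 clusters of replicates 1 and 3 line up, RPL27A clusters are all in the 3′ UTR, and RPL28 has one line present in all 4 lists.

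Large and small subunit mRNAs were compared within each replicate. The large subunit had 1.28, 0.981 and 0.340 clusters per member in replicates 1, 2 and 3 and the small subunit 1.09, 0.781 and 0.156. The difference, 0.191 ± 0.00837 (SD, n = 3), was larger than its spread and had 1 sign in 3 of 3 replicates (exact two-sided permutation by sign flips, p = 0.25, adjusted 0.4). It went to -0.0206 when clusters with fewer than 3 distinct reads were left out, and to 0.000983 without clusters also annotated as intron. The share of members with a cluster was 62.3%, 47.2% and 24.5% against 56.3%, 50% and 15.6%, a difference of 4.03 ± 6.11 points that was within its spread (exact permutation p = 0.5, adjusted 0.667). Recurrence in all 3 replicates was seen for 12 of 53 large subunit genes (22.6%) and 4 of 32 small subunit genes (12.5%), a difference that was not tested.

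Depth per cluster and coding share differed in sign between replicates. The median log2 conversions per cluster were higher in the large subunit by 0.45 in replicate 1 and 0.61 in replicate 3, and lower by 0.58 in replicate 2 (mean 0.16 ± 0.65, exact permutation p = 0.75, adjusted 0.857). The coding share was 39.7%, 36.5% and 33.3% against 48.6%, 44% and 20% (mean difference -0.998 ± 12.4 points, exact permutation p = 1, adjusted 1). The small subunit had 5 clusters in replicate 3. Clusters in the 5′ UTR alone numbered 20 of 138 for the large subunit, 16.0% ± 6.31, and 3 of 65 for the small subunit, 3.62% ± 4.05 (SD, n = 3), from RPS12 and RPS15. Clusters touching the 5′ UTR and coding sequence are left out of these counts. In replicate 1 there were 9 of them, from the small subunit genes RPS19, RPS16, RPS6 and RPS12 and the large subunit genes RPL30, RPL26 and RPL10. Clusters in several regions were 26.3% ± 7.20 of large subunit and 43.6% ± 16.0 of small subunit clusters. The counts thus do not show that small subunit clusters touched the 5′ UTR less often. Stop codons were touched by 6 of 138 and 7 of 65. These last counts were described without a test.

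**Figure D5:**
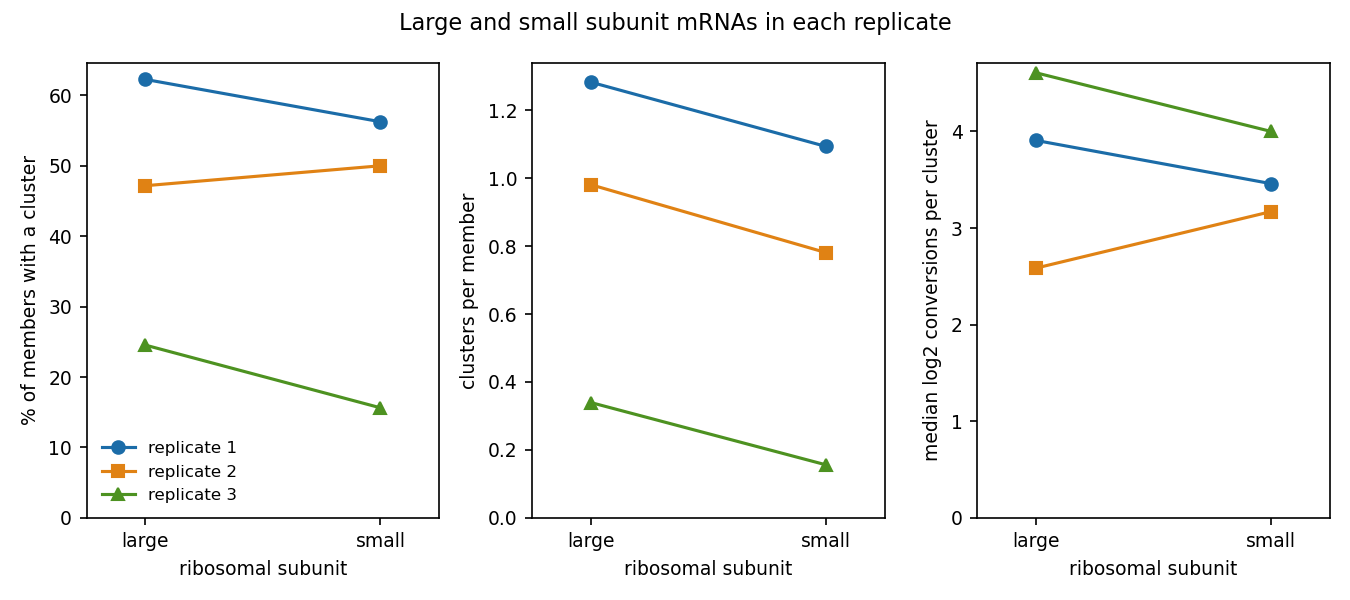
Share of genes with a cluster, clusters per gene and median log2 conversions per cluster for the large (53 genes) and small (32 genes) subunit, with 1 line per replicate. Clusters per gene fall from large to small in all 3 replicates, and the other panels have replicate 2 going the opposite way.

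Compared with other mRNAs, member clusters were slightly deeper. The median was 14, 7 and 22 conversions in replicates 1, 2 and 3, against 13, 6 and 19. On the log2 scale the difference of medians was 0.18 ± 0.06 (SD, n = 3), positive in 3 of 3 (exact two-sided permutation by sign flips, p = 0.25, adjusted 0.4). It ranged from 0.10 without hairpin clusters to 0.35 in the series-wide list. Clusters with only 2 distinct reads made up 37.9%, 64.9% and 82.6% of members and 53.4%, 71.7% and 89.96% of other mRNA clusters. Each distinct read was counted 6.01, 3.14 and 11.1 times on average in member clusters, so conversions include repeats of identical reads, most of all in replicate 3. Whether identical reads came from separate molecules was not tested. The lists give a library support for each cluster, which was read here as the number of sequencing runs without a stated definition. It was at least 2 in 55.3%, 84.4% and 100% of member clusters, against 48.5%, 91.7% and 100% of other mRNA clusters. Whether the list of replicate 3 was filtered differently was not tested. Conversions per 100 reads were 85.8, 94.7 and 99.8, close to 87.8, 94.4 and 97.7 for other mRNAs.

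In replicate 1, 9 of 103 member clusters (8.74%) had conversions numbering under 50% of their reads, against 11.1% of other mRNA clusters, and none did in replicates 2 and 3. The one with the most reads was in RPS12, with 7 conversions in 115 reads at chr6:133135881-133135911 (hg19, plus strand), chosen for mention after its values were seen. RPLP2 had 1 conversion in 17 reads. Such a cluster has many reads without the mark of crosslinking. Conversions were concentrated in few genes, the 5 leading ones holding 38.5%, 45.6% and 62.5% of member conversions in replicates 1, 2 and 3.

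Related gene lists gave a frame for these values. RACK1, a 40S protein outside the name rule, had 143, 53 and 37 conversions in replicates 1, 2 and 3. FAU, whose product is fused to a ubiquitin-like domain, had 13 conversions in replicate 1 and no cluster in the other replicates. Of 16 other mRNAs known for a TOP start, 4 had a cluster in all 3 replicates, EEF1A1, EEF1D, EEF2 and VIM. The translocase EEF2 led them with 474, 158 and 102 conversions. Coding shares in that list were 60.5%, 54.2% and 66.7%, but EEF2 supplied 23 of the 38, 12 of the 24 and 4 of the 9 clusters. Without it they were 26.7%, 33.3% and 40%, against 42.7%, 39.0% and 30.4% for the members. Mitochondrial ribosomal proteins, whose messengers are made in the nucleus, recurred in 5 of 77 genes, with coding shares of 20.9%, 20.4% and 21.4%. The lists were small, and no test was made between them.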

How the data were processed

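The labels give 3 replicates of 1 group and 2 sequencing runs per replicate. Bowtie2 2.1.0 and the hg19 build are named in the submitters' processing notes. The sources used here do not give the version of the cluster program. The authors deposited 1 cluster list per replicate and a series-wide list, each cluster with an estimated false discovery rate of 5%, per the file attributes. Each value is a raw count by the authors of conversions per cluster, without scaling to depth. The authors' entropy score was not used. The members and the gene lists were chosen with earlier results of these data known. All 77 listed genes and 8 of 10 copies matched RefSeq symbols of GRCh38.p14. Named genes were those with a cluster in all 3 replicates, the 5 per subunit and 3 per region with the most series-wide conversions, and those without a cluster; a few of them are not reported here. Clusters overlapped when sharing at least 1 nt on 1 strand. The test of each difference was an exact two-sided permutation over replicates by sign flips, adjusted by Benjamini-Hochberg over 8 tests. Alternatives covered distinct reads, conversion minimum, list, overlap, region rule, copies and each replicate left out. Python 3.11.15, pandas 2.3.3 and scipy 1.17.1 were used, and the calculations were tested on simulated data.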

Additional observations from a re-analysis of the deposited data

Results flagged for a closer look

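Signal in ribosomal protein genes was also present outside the clusters compared above, and none of it has a control sample to set a background. The strongest was in RPL37A, a 60S protein gene, at an exon of an Ensembl transcript that is no exon of a coding RefSeq transcript. That cluster, at chr2:217366729-217366784 (hg19, plus strand) in replicate 1 and annotated as AluSz6 in sense and AluSz in antisense, had 1086 conversions in replicate 1, 472 in replicate 2, 177 in replicate 3 and 1488 in the series-wide list. In each replicate list it held more conversions than the largest member cluster, that of RPS19 with 314, 194 and 97. Reads from this and other Alu copies cannot be told apart with the lists.

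Ribosomal protein genes had 55, 60 and 23 further clusters without a RefSeq mRNA exon in replicates 1, 2 and 3. Of these, 47, 51 and 20 were annotated as intron, and 18, 10 and 4 carried a small nucleolar RNA class. Clusters of RPS7 in replicates 1 and 2 that named SNORA73 without such a class are not in the latter counts. They held 2621, 1317 and 729 conversions, against 2629, 913 and 630 in the member clusters. Without the RPL37A Alu cluster they held 1535, 845 and 552, fewer than all member clusters in each replicate. The member sums, however, kept their own largest cluster, that of RPS19 with 314, 194 and 97. The sums were thus not trimmed alike, and no order between the sets follows from them. An exon of some transcript was annotated in 38, 30 and 11 of them, so that they are outside coding RefSeq exons and not outside all messenger exons. Clusters named for ribosomal protein pseudogenes numbered 6, 6 and 2, with 154, 43 and 75 conversions.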

How the results depend on the processing

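Of 117 values under alternatives, 95 kept their direction or stayed within the set margin. All differences between ribosomal protein and other mRNAs, in region share of clusters and in median depth, kept their direction under every alternative run for them, though not their size. Region shares of conversions were not among these alternatives. By conversions the mean coding share went the other way, 25.2% ± 5.41 against 29.7% ± 2.09. With a cluster in several regions counted for each, the differences in cluster share were -16.1 points in the 3′ UTR and 28.5 in coding sequence. Both values include clusters also annotated as intron. The 5′ UTR difference was 8.81 with at least 3 distinct reads. The shares of clusters and of conversions moved to 1.78% and 1.76% with at least 3 distinct reads, and that of clusters to 0.951% without clusters also annotated as intron. Comparisons of the subunits were less stable. With at least 3 distinct reads, the differences between large and small subunit became -0.0206 clusters per member, -1.93 points in the share of members and -0.12 in median log2 conversions. That median difference was -0.26 with clusters at or above the median conversions, 0 for log2 distinct reads, and -0.069 to 0.53 with 1 replicate left out. The difference in coding share was 0.203 in the series-wide list, 0.0920 without hairpin clusters and 0.0541 without clusters naming another gene, and -8.16 to 2.94 with 1 replicate left out. Members in all 3 replicates numbered 4 with at least 3 distinct reads and 10 at or above the median conversions. With 1 replicate left out they numbered 16 to 34, the highest without replicate 3. Places in all 3 numbered 3 with at least 3 distinct reads, 11 in the series-wide list, and 10 to 27 with 1 replicate left out, where only 2 lists had to agree. The series-wide value comes from 1 pooled list and not from overlap of the replicate lists, so it is a different measure. The cause of the other changes was not tested. The alternatives without hairpin, other-gene or intron clusters were chosen after seeing the data. Depth limits these results, since replicate 3 had 23 member clusters. No paired analysis was possible because no second group of samples shares the replicate numbers; differences between gene sets were already taken within each replicate.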
